A study of Mus musculus with 52 samples.

Results

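Blood endothelial identity was followed through 10 genes that mark the cells lining blood vessels: Erg, Sox17, Cdh5, Pecam1, Esam, Emcn, Tie1, Eng, Ecscr and Egfl7. They were picked by gene symbol from the 27525 genes of a table of 32 mouse tumors, and all 10 were found there and in a second table of 27894 genes and 52 libraries. In both tables a value is a normalized count, the reads of a gene divided by a size factor of its library. The tumors, labelled KxPxCx, grew from 1 line of mouse pancreatic tumor cells placed under the skin of the flanks of syngeneic male C57BL/6 mice. In the experiment labelled ST#23, 8 tumors were controls and are called untreated here, 8 received a single intratumoral injection of the STING agonist ADU-S100, 8 received repeated intraperitoneal injections of the agonistic anti-LTβR antibody, and 8 received both agents and are called combination. All were resected at the end of the course, and no group was defined by genotype.

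The 20 libraries of a second experiment, labelled ST#15, carry the letters A to D with 5 libraries each. Their descriptions name control, ADU-S100, anti-LTβR and combination for A, B, C and D, but the treatment label reads Combination for all 20, so these groups are called by letter and only for D do the labels match. Whether the libraries of a group came from separate mice is not stated in the labels, so p-values cover the spread between these libraries only. Depth ran from 12762453 to 15591986 reads over the ST#23 libraries and from 8716257 to 18821792 over ST#15. In ST#15 the libraries C3 and D3 stood apart: D3 held 8716257 reads on 17066 genes, against 16351965 or more reads and 21066 or more genes in the 18 libraries other than these, and 1 of its reads was worth 3.78 normalized counts, against 1.38 in C3. Calls that rest on them are therefore given with and without them.

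Endothelial cells keep their identity through transcription factors of the ETS and SOX families, which act on genes for junction proteins, adhesion molecules and receptors that hold the vessel wall together and respond to flow and growth factors. In tumors these vessels feed growth and are the route by which leukocytes enter. Many of the 10 genes are also made in lymphatic endothelium, and Pecam1, Eng and Esam also in some blood cells, so each gene alone is not proof of a blood vessel. The label was set beside a list of 38 further endothelial genes and lists for other cells, all chosen with earlier results of these data known. None of the 10 genes was at 0 in any library, and the reads behind single values ran from 17 for Sox17 to 1152 for Pecam1 in ST#23.

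Promoter sequences are given as a description of the genes. The reference promoters (RefSeq, GRCm38.p6) held 9 windows for 5 of the 10 genes, namely Egfl7, Eng, Emcn, Tie1 and Erg, and were searched over the 250 bases before each start for the letters AGGAAG or their reverse complement CTTCCT, a core bound by ETS factors such as ERG. These letters were found in 6 of the 9 windows and in at least 1 window of each of the 5 genes, where 29.5% of all 32851 windows held them. Of all 27025 genes 32.3% held them in at least 1 window, but genes differ in their number of windows, so these shares are a rough guide. The letters ACAAT or ATTGT, a core bound by SOX factors, were found in 2 of the 9 windows (Emcn and Erg), against 27.7% of all windows, and the GATA core AGATAA or TTATCT in 1 (Erg), against 9.99%. Both strands were read, and no match of these letters overlapped another in the 9 windows. A match is a description of the letters and not a bound site. The windows without the ETS letters, of Egfl7 at chr2:26586386-26586635 and of Erg at chr16:95530366-95530615 and chr16:95586594-95586843, also lie almost wholly outside exons but are not printed. The 4 windows below all hold the letters and lie almost wholly outside exons. They include the genes with the highest fold changes below (Erg and Egfl7) and genes with lower ones (Eng and Emcn). They are Egfl7 at chr2:26583615-26583864 (plus strand), Eng at chr2:32646345-32646594 (plus strand), Emcn at chr3:137340828-137341077 (plus strand) and the most downstream of 3 listed Erg starts, 1 of 3 Erg windows and the only one with the letters, at chr16:95459349-95459598 (minus strand), each 5′ to 3′ with the ETS letters in capitals.
Egfl7: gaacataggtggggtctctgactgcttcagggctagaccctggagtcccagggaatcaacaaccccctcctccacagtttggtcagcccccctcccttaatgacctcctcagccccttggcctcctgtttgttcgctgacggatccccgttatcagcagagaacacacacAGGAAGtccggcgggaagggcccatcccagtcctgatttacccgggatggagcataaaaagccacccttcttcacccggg
Eng: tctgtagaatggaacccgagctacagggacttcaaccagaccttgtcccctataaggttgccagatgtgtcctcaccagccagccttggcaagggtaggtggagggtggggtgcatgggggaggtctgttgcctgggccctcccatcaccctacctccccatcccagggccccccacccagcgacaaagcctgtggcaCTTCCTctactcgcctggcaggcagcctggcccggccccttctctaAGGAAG
Emcn: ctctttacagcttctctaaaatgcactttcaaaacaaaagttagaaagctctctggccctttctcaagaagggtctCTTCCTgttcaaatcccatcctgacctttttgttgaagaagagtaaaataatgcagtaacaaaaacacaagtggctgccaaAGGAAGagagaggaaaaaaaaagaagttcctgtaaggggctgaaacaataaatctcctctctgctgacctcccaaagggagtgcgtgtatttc
Erg: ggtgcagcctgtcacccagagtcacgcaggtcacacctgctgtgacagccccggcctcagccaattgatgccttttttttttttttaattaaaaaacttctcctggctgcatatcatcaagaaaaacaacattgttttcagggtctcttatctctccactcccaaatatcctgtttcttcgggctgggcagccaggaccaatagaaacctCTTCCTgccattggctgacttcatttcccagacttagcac
In Eng 1 copy of the letters began 6 bases and the other 52 bases before the start. In the printed Egfl7 window the copy began 80 bases before the start, and in Erg 40 bases. In Emcn the 2 copies began 174 and 93 bases before it. Another Egfl7 window (chr2:26580833-26581082), not printed, held 3 copies, 216, 89 and 49 bases before its start.

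Across the 32 tumors of ST#23 the combination tumors carried the highest levels of all 10 genes, and the 10 were chosen with these values known, so the values of this experiment are a description without a test. For 7 genes all 8 combination tumors lay above each of the other 24 tumors, and for Emcn, Esam and Sox17 7 of 8 did. The mean ratio of combination to untreated tumors was 2.79 for Erg, 2.72 for Egfl7, 2.52 for Ecscr and 2.42 for Tie1, and between 1.55 for Esam and 1.98 for Sox17 in the others. In bulk tumors, more endothelial cells and more RNA per endothelial cell cannot be told apart.

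**Figure D1:**
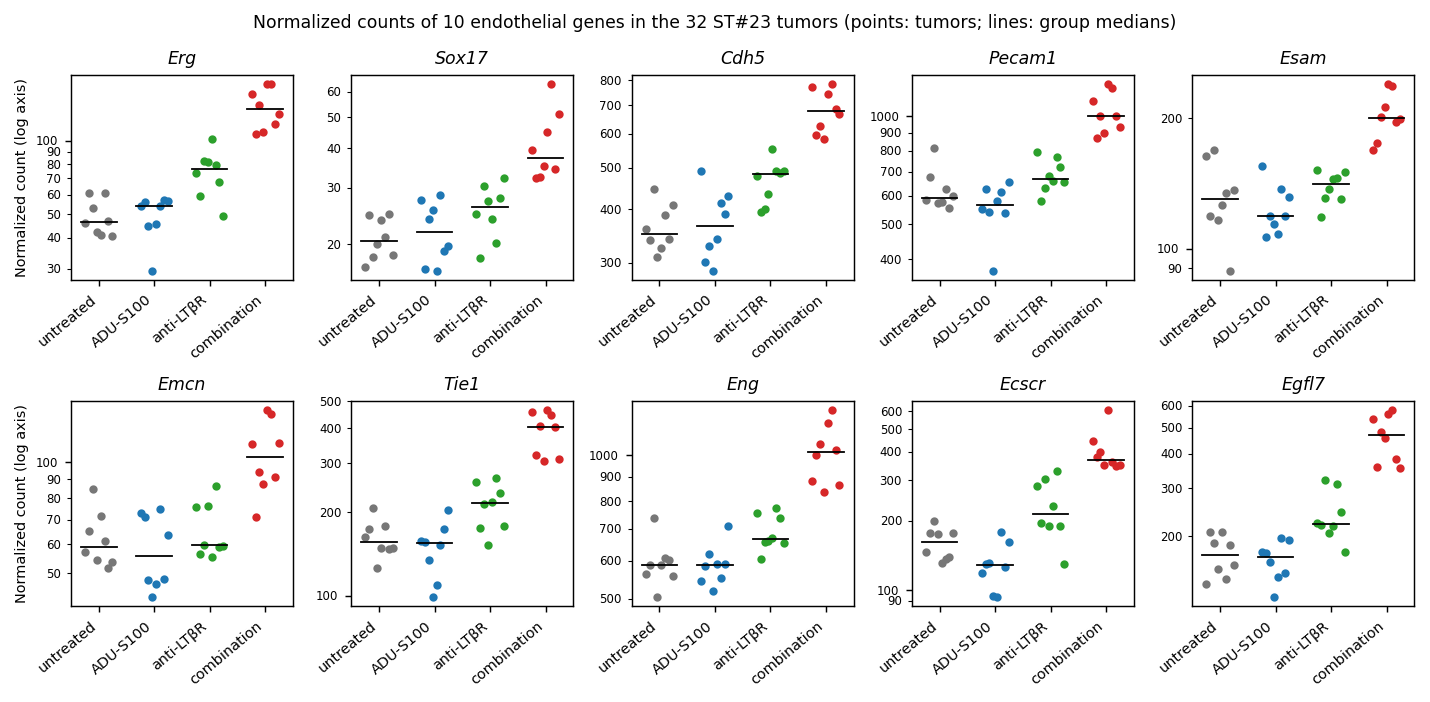
Normalized counts of the 10 endothelial genes in the 32 ST#23 tumors, on a log axis with a scale of its own for each gene. Each point is a tumor, colors are the 4 groups and the black line is the group median; the combination points lie above all others for 7 genes, and 1 combination tumor overlaps for Emcn, Esam and Sox17.

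Of the transcription factors, Erg had the highest fold change of the 10 and Sox17 the lowest level. Erg, an ETS factor that holds endothelial cells in their differentiated state (chr16:95359169-95586593, minus strand, GRCm38), ranged from 40.9 to 61.1 normalized counts in untreated tumors (median 46.5), from 29.5 to 57.2 with ADU-S100 (median 53.9), from 49.0 to 101 with anti-LTβR (median 76.8) and from 106 to 170.4 in the combination (median 134). The untreated and ADU-S100 tumors overlapped, the anti-LTβR tumors lay between and overlapped both, and the combination tumors lay apart from the rest. The log2 fold change against untreated tumors, on the log2(value + 1) scale, was 1.46 ± 0.13 (SE, n = 8 and 8) for the combination, 0.58 ± 0.14 for anti-LTβR and 0.01 ± 0.15 for ADU-S100. Sox17, a factor of arterial and developing endothelium (chr1:4490931-4497354, minus strand), ran from 17.0 to 24.9 in untreated tumors (median 20.55), from 16.6 to 28.5 with ADU-S100 (median 21.9), from 18.1 to 32.3 with anti-LTβR (median 26.1) and from 32.2 to 63.5 in the combination (median 37.2). The first 3 groups overlapped widely, and 1 combination tumor lay within the anti-LTβR range. Its log2 fold change in the combination was 0.93 ± 0.16. With 17 to 55 reads a tumor it was the least deeply read of the 10, and 804 of its 4772 exonic bases are shared with a gene on the opposite strand.

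Among the junction and adhesion genes, Cdh5 and Pecam1 had far higher values than Esam and Emcn. Cdh5, which encodes VE-cadherin of the adherens junction (chr8:104101625-104144511, plus strand), ran from 309 to 447 in untreated tumors (median 351), from 288 to 492 with ADU-S100 (median 366), from 393 to 552 with anti-LTβR (median 483) and from 583 to 785 in the combination (median 677). Pecam1, which encodes CD31 and also occurs on platelets and leukocytes (chr11:106654217-106750628, minus strand), ran from 554 to 817 in untreated tumors (median 590.3), from 372 to 654 with ADU-S100 (median 567), from 582 to 795 with anti-LTβR (median 670.3) and from 867 to 1229 in the combination (mean 1027). Both genes separated the combination tumors from all others, and their ranges in the remaining groups overlapped. The log2 fold change in the combination was 0.90 ± 0.08 for Cdh5 and 0.71 ± 0.09 for Pecam1, and with anti-LTβR 0.35 ± 0.08 and 0.14 ± 0.08.

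Esam, an adhesion molecule of endothelial tight junctions and platelets (chr9:37528078-37538319, plus strand), had the smallest fold change in the combination, 0.64 ± 0.12. It ran from 89.0 to 169 in untreated tumors (median 130.3), from 107 to 155 with ADU-S100 (median 119), from 118 to 152 with anti-LTβR (median 141) and from 169 to 240.2 in the combination (median 199.9). The lowest combination tumor was level with the highest untreated tumor. Emcn, the sialomucin endomucin of capillary and venous endothelium (chr3:137341067-137432185, plus strand), ran from 51.7 to 84.6 in untreated tumors (median 59.1), from 43.2 to 74.6 with ADU-S100 (median 55.8), from 55.5 to 86.5 with anti-LTβR (median 59.5) and from 71.2 to 139 in the combination (median 103). Combination tumor 2 lay inside the range of the other groups. The log2 fold change was 0.73 ± 0.14 in the combination and 0.08 ± 0.13 with anti-LTβR.

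Among the receptors and membrane proteins, Tie1 and Ecscr came close to Erg while Eng did not. Tie1, the partner of the angiopoietin receptor (chr4:118471191-118490061, minus strand), ran from 126 to 207 in untreated tumors (median 156), from 99.2 to 203 with ADU-S100 (median 154), from 152 to 265 with anti-LTβR (median 216) and from 305 to 465 in the combination (median 406). Its log2 fold change was 1.26 ± 0.12 in the combination and 0.38 ± 0.12 with anti-LTβR, and no tumor of another group reached the lowest combination tumor. Ecscr, a membrane protein of endothelial cells that takes part in cell movement, ran from 131 to 200.4 in untreated tumors (median 161), from 93.5 to 179 with ADU-S100 (median 128), from 130.3 to 329 with anti-LTβR (median 214) and from 346 to 605 in the combination (median 369). Its log2 fold change was 1.32 ± 0.12 in the combination, 0.49 ± 0.16 with anti-LTβR and -0.32 ± 0.14 with ADU-S100. Eng, the TGF-β co-receptor endoglin, which some macrophages and fibroblasts also make (chr2:32646595-32682669, plus strand), ran from 504 to 737 in untreated tumors (median 588), from 518 to 711 with ADU-S100 (median 588), from 606 to 775 with anti-LTβR (median 666) and from 839 to 1243 in the combination (median 1015). The combination tumors again stood clear of the others, with a log2 fold change of 0.76 ± 0.09.

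Egfl7, the secreted member, encodes an endothelial matrix protein and its gene hosts the microRNA miR-126 (chr2:26580014-26593120, plus strand). Its exons share 264 bases with a gene on the same strand and 64 with Agpat2 on the opposite strand, and whether counting used strand is not stated. It ran from 133 to 207 in untreated tumors (median 171), from 119.8 to 197.5 with ADU-S100 (median 167), from 175 to 321 with anti-LTβR (median 222) and from 354 to 579 in the combination (median 469.7). No tumor outside the combination reached 354, and the log2 fold change was 1.43 ± 0.13 in the combination and 0.48 ± 0.13 with anti-LTβR. Per kilobase of exon the order of the mean level in untreated tumors was Eng (147 ± 16.5, SD, n = 8), Pecam1 (101 ± 13.8), Ecscr (91.5 ± 14.3), Cdh5 (86.9 ± 11.1), Egfl7 (47.7 ± 8.21), Esam (46.0 ± 9.04), Tie1 (32.8 ± 5.02), Erg (14.1 ± 2.43), Emcn (11.5 ± 2.07) and Sox17 (4.41 ± 0.646). Pecam1, Ecscr and Cdh5 lay within 1 SD of their neighbours in that order, as did Egfl7 and Esam. In the combination Eng still led at 249.7 ± 36.0, Ecscr came next at 230.3 ± 50.1 and Egfl7 reached 129.6 ± 25.5.

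**Figure D2:**
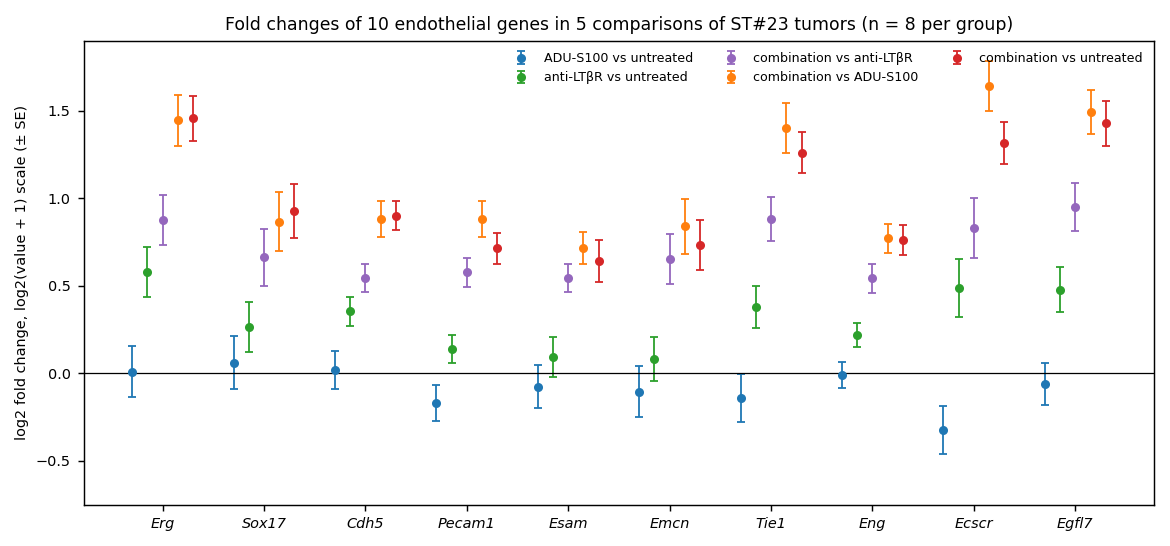
Log2 fold changes of the 10 genes in 5 comparisons of ST#23 tumors, on the log2(value + 1) scale; bars are standard errors of the limma fit (n = 8 per group). The ADU-S100 points lie around 0, the anti-LTβR points between 0.08 and 0.58, and the combination points against untreated tumors between 0.64 and 1.46.

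Counted over all genes tested by limma with Benjamini-Hochberg adjustment, all 10 genes were past a false discovery rate of 0.05 in combination against untreated tumors, where 19.6% of 16909 genes were called higher, and 4 of them also past 2-fold, where 5.16% were. The groups did not overlap for 8 of the 10, where 4.64% of all genes lay wholly higher, as all 8 did. In anti-LTβR against untreated tumors, 5 of the 10 were past that threshold (Erg, Egfl7, Cdh5, Tie1 and Eng), where 7.21% of 16691 genes were called higher, and in ADU-S100 against untreated tumors none was, where 0 of 16613 genes (0.0%) were called by limma, 1 by edgeR, and 46 higher and 11 lower by DESeq2, and 2408 had an unadjusted p under 0.05 by limma. All 10 were past the threshold in the combination against anti-LTβR (11.3% called higher) and against ADU-S100 (20.2%), and the groups did not overlap for 8 (1.45% of all genes) and 9 (5.0%) of them, while anti-LTβR and untreated tumors overlapped for all 10 (0.809% of all genes lay wholly higher with anti-LTβR). These comparisons share tumors, and since the genes were chosen on these values, nothing is read from the counts. The median log2 fold change of the 10 was 0.91, 0.31 and -0.07 against untreated tumors for the combination, anti-LTβR and ADU-S100, beside -0.02, 0.00 and 0.00 over all genes tested. For the interaction of the agents, the amount by which the combination exceeds the sum of its parts on the log2 scale, the median of the 10 was 0.75 and the values ran from 0.53 ± 0.14 for Cdh5 to 1.15 ± 0.22 for Ecscr, beside a median of -0.01 over all genes.

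Most of the 10 genes, but not Sox17, also varied together among tumors of 1 group. After each gene was standardised over the 32 tumors, the correlation of a gene with the mean of the other 9 ran from 0.777 for Sox17 to 0.962 for Tie1, and after group means were removed from 0.145 for Sox17 to 0.828 for Pecam1. Over 17639 other genes the median correlation with the members' mean was -0.03, with a 95th percentile of 0.786, and within groups -0.04 and 0.469. These are correlations over 32 tumors that share groups and libraries and are given as a description. Combination tumors 5 and 6 held the highest value of every gene in their group, 6 and 4 genes respectively, and both had fewer than 14000000 reads. Untreated tumor 3 was highest for 7 genes and ADU-S100 tumor 4 lowest for 7. Over the 9 other ways of fitting combination against untreated tumors, the log2 fold change stayed between 1.28 and 1.46 for Egfl7 and between 0.57 and 0.65 for Esam. Among these ways was leaving out the libraries under 14000000 reads, namely combination tumors 5 and 6 and untreated tumor 6.

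The genes whose profile over the 32 tumors was most like the mean of the 10 were Rasip1 (r = 0.957), Grb10 (0.955), Mtap (0.953), Smpdl3a (0.948), Rcn3 (0.947), Papss2 (0.947), Armcx3 (0.944), Il11ra1 (0.942), P3h3 (0.942) and Mfap4 (0.941). Rasip1, an endothelial regulator of small GTPases, is the only one of these on the lists of endothelial genes, and rose from 74.1 ± 10.3 normalized counts in untreated to 164 ± 28.4 in combination tumors (SD, n = 8). Mfap4 is a matrix protein and Rcn3 a protein of the secretory pathway: Mfap4 had means of 528 ± 197 and 3217 ± 1688 in the same groups, and Rcn3 603 ± 102 and 1714 ± 537. Within groups the correlations of the 10 most alike genes ran from 0.689 to 0.838.

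Of the 38 further endothelial genes, 33 rose and none fell in combination against untreated tumors (limma, FDR 0.05), where 19.6% of all genes were called higher. By 2-fold or more 13 rose, where 5.16% did. The 38 were chosen with earlier results of these data known and read in the same tumors as the 10, so they are no independent check. The list had a median log2 fold change of 0.91 beside -0.02 over all genes tested. The sum of the 38 ran from 8895 to 13711 in untreated tumors and from 13196 to 15978 in the combination, so it overlapped, and the median sum of the 10 receptor genes, which include Flt1 at a mean of 6863 ± 1672 and 5902 ± 878, was 8375 and 8358. For 19 of the 38 all combination tumors lay above all untreated tumors, as for 4.64% of all genes. All 7 signalling genes, all 8 surface genes, 9 of 10 receptors, 6 of 8 transcription factors and 3 of 5 ligands and secreted proteins rose. Clec14a, a lectin-like surface protein of tumor vessels, rose most on the log2 scale, by 1.72 ± 0.24 (adjusted p = 6.1e-05, limma), from 29.8 ± 11.3 to 97.6 ± 28.2 normalized counts. Ramp2, the co-receptor for adrenomedullin, rose by 1.54 ± 0.17 (adjusted p = 1.2e-05) and Cldn5, the tight junction protein of endothelium, by 1.48 ± 0.14 (adjusted p = 4.8e-06), from 72.5 ± 13.2 to 206 ± 44.2 normalized counts. Shank3 (1.44), Cd34 (1.37), the SOX factor Sox18 (1.37), She (1.28), Myct1 (1.26), Rasip1 (1.13), Arhgef15 (1.09), the matrix protein Mmrn2 (1.09), the VEGF receptor gene Kdr (1.05) and the transcription factor Tal1 (1.02) also passed 2-fold. Sox7, Mecom, Flt1, Apln and Esm1 did not pass, named here after their values were seen, with log2 fold changes of 0.49, -0.05, -0.19, -0.08 and 0.32.

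**Figure D3:**
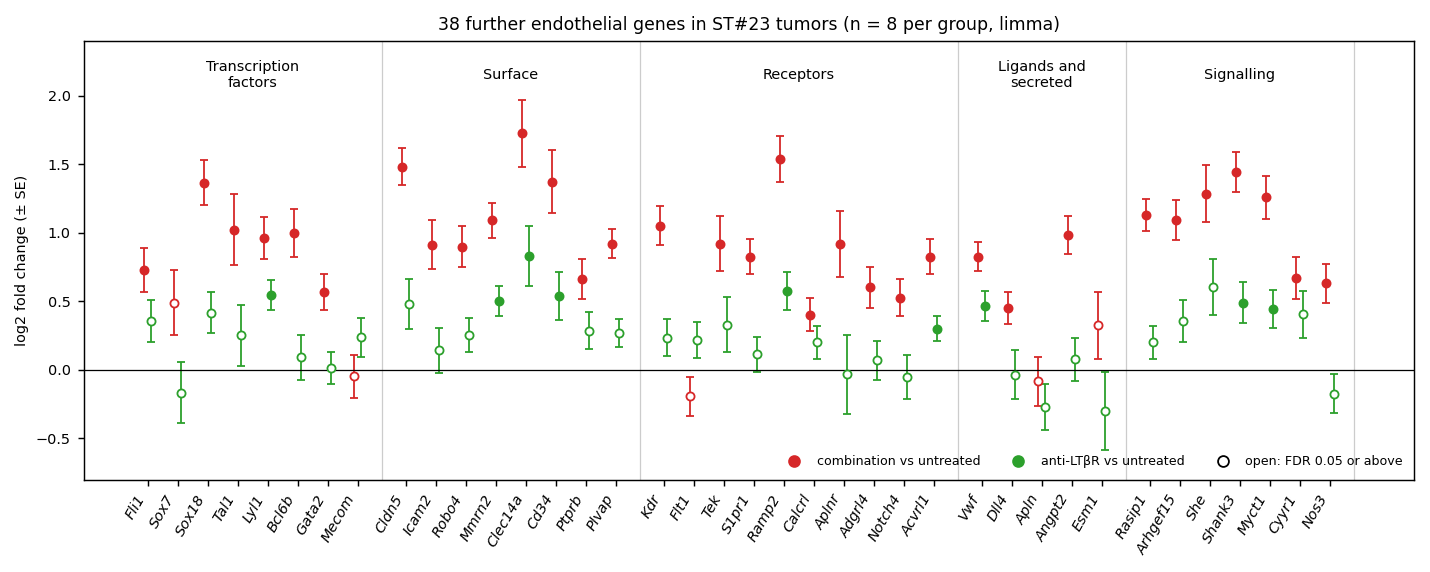
Log2 fold changes of the 38 further endothelial genes against untreated tumors, in red for the combination and in green for anti-LTβR, with standard errors (limma, n = 8 per group). Filled points have an FDR under 0.05: 33 red and 9 green points, all above 0.

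With anti-LTβR alone 9 of the 38 rose and none fell, where 7.21% of all genes were called higher, with a median of 0.25 beside 0.00 over all genes. They were Lyl1, Mmrn2, Clec14a, Cd34, Ramp2, Acvrl1, Vwf, Shank3 and Myct1. Lyl1, Acvrl1 and Vwf were not above 2-fold in the combination and are named after their values were seen. Without the libraries under 14000000 reads, a setting chosen after seeing the data, 5 of the 38 rose. With ADU-S100 alone 0 of the 38 were called by limma, edgeR or DESeq2, and 1 had an unadjusted p under 0.05 by limma. Against anti-LTβR the combination was higher for 32 (11.3% of all genes) and lower for 1, Flt1, and against ADU-S100 higher for 34 (20.2%) and lower for 1, Flt1 again. The interaction was positive for 21 and negative for 1, which was Flt1, out of 38, where 7.33% of 17649 genes were positive at the same threshold and 1947 genes negative.

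Markers of other cells moved in the same tumors, and their part in the values of the 10 genes was not tested. The lymphatic list rose whole in the combination (6 of 6, median log2 fold change 1.86), where 19.6% of all genes were called higher. Flt4, the VEGF-C receptor of lymphatic vessels, rose from 127 ± 41.7 to 526 ± 134 normalized counts, by 2.07 ± 0.19 (adjusted p = 4.8e-06), and Pdpn, which fibroblasts also make, by 0.86 ± 0.14. The summed lymphatic list ran from 714 to 1378 in untreated and from 1836 to 3636 in combination tumors. With anti-LTβR 4 of the 6 rose, where 7.21% of all genes did, with a summed level from 1034 to 1937 and Flt4 at 1.08 ± 0.22.

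The fibroblast list rose in the combination too (5 of 5, median 1.54), with summed levels of 58683 to 93933 in untreated and 100610 to 372660 in combination tumors, whereas with anti-LTβR 0 of 5 were called by limma and 0 had an unadjusted p under 0.05, with a median of 0.01. Col1a1, a chain of the main fibrillar collagen, rose by 1.54 (adjusted p = 5.4e-05) and Col1a2 by 1.66 (adjusted p = 2.9e-05). Of 7 mural genes tested out of 8, which mark pericytes and smooth muscle, 6 rose (median 0.71). Their sum was 4274 to 9873 in untreated and 6968 to 18290 in combination tumors, so these groups overlapped. Of 5 pan-leukocyte genes 4 rose (median 0.54), with sums of 10567 to 14545 and 13350 to 18743, and of 6 macrophage genes 4 rose (median 0.35), with sums of 13481 to 24701 and 18160 to 27871.

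In the opposite direction, 4 of 6 epithelial genes fell (median -0.80), where 23.6% of all genes were called lower. Among them was Krt8, a keratin of the tumor cells, which fell from 9520 to 5024 on average, a log2 fold change of -0.92 (adjusted p = 0.00012). The epithelial sum was 16056 to 29267 in untreated and 6882 to 14787 in combination tumors. Of 5 platelet genes tested out of 8, 1 rose, a share near the 19.6% of all genes, with sums of 555 to 939 and 664 to 1901, and 0 of 5 erythroid genes, 0 of 4 adipocyte genes and 0 of 5 skeletal muscle genes were called by limma, with 1, 0 and 0 at an unadjusted p under 0.05. With anti-LTβR alone 4 of 5 leukocyte genes rose (median 0.32) and 4 of 6 epithelial genes fell (median -0.57). Their sums were 13707 to 15794 and 13202 to 16279. In that comparison 7.21% of 16691 genes were called higher, and 1352 of the 16691 were called lower. No gene of these lists was at 0 in every library of a group.

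**Figure D4:**
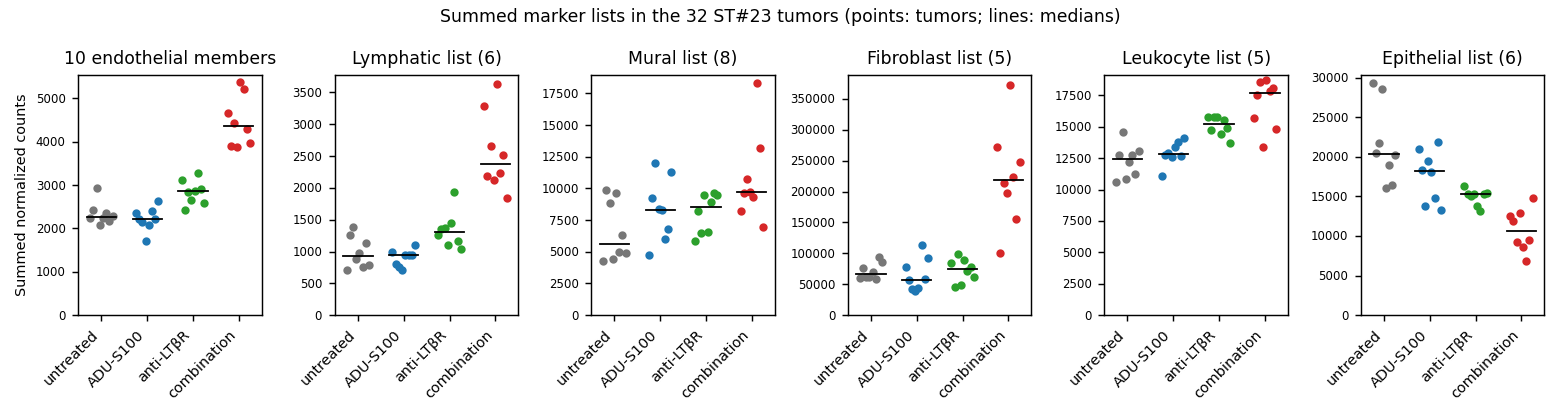
Summed normalized counts of 6 gene lists in each of the 32 ST#23 tumors, with group medians as lines and the number of genes in brackets; each panel has a linear axis from 0. The 10 endothelial genes summed to 3870.3 to 5366 in combination tumors and at most 3276 elsewhere, and the medians of the lymphatic and fibroblast sums were also highest there, while the epithelial median was lowest.

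Genes that tell vessel types apart did not all move with the 10, and several of the counts lie near the shares of all genes called, 19.6% higher and 23.6% lower. Among 5 arterial genes 3 rose and 1 fell: Gja4, an arterial connexin, rose by 1.28 ± 0.14 (adjusted p = 1.1e-05), from 54.0 to 133 normalized counts, and Efnb2, an arterial ligand that epithelial cells also make, fell by 0.88 on the log2 scale (adjusted p = 9.7e-05), from 1318 to 725. Among 4 venous genes 1 rose and 2 fell, with Nr2f2, a factor of venous identity that stromal cells also make, at -0.49 (adjusted p = 0.00058) and Ephb4 at -0.16 (adjusted p = 0.0086). Among 5 capillary genes none rose and 1 fell, Aqp1, a water channel, from 4595 to 2446 (adjusted p = 0.00019). Of 4 genes of high endothelial venules, the vessels by which lymphocytes enter lymph nodes, 1 had enough reads to be tested, Fut7, with a log2 fold change of 0.41 (adjusted p = 0.094).

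The rule for the 10 genes used no value of the second experiment, ST#15, so their levels there were tested, although earlier results of these data were known when the genes were chosen. With 5 libraries a group the levels overlapped more than in ST#23. In D against A, the letters described as combination and control, 2 of the 10 rose, Ecscr and Egfl7, where 0.961% of 15096 genes were called higher. All 10 log2 fold changes were above 0, with a median of 0.89 beside -0.06 over all genes tested. Without D4 the median was 0.56, and Emcn turned to -0.18 without D4 and to -0.0035 without D2.

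Egfl7 measured 118, 199, 151, 127 and 164 normalized counts in A1 to A5 and 413, 521, 1836, 775 and 369 in D1 to D5. Its log2 fold change was 2.11 ± 0.41 (adjusted p = 0.042, limma, n = 5 and 5). Every D library lay above every A library, with D3 far above the rest. Ecscr measured 116, 136, 331, 172 and 167 in A and 513, 697, 2066, 629 and 883 in D, a log2 fold change of 2.28 ± 0.40 (adjusted p = 0.033), again without overlap. Tie1 measured 105, 104, 182, 111 and 127 in A and 254, 446, 1028, 673 and 190 in D, also without overlap, but its log2 fold change of 1.80 ± 0.43 did not pass (adjusted p = 0.074). These 3 genes were the only ones of the 10 whose groups did not overlap, where 4.27% of all genes lay wholly higher in D.

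Erg, with the highest fold change in ST#23, measured 40.6, 36.0, 70.8, 49.8 and 68.5 in A and 65.2, 111, 41.6, 332 and 81.6 in D. D1 and D3 lay inside the A range, and the log2 fold change of 0.90 ± 0.51 did not pass (adjusted p = 0.31). It was 0.45 without D4, the highest library, and at most 1.52 over the alternatives. Eng measured 431 to 774 in A, with D values of 538, 1137, 22064, 1267 and 319.5. The value of 22064 in D3 lay apart by more than an order of magnitude, and the log2 fold change of 1.46 ± 0.91 (adjusted p = 0.35) became 0.47 without D3. Emcn, at 62.6 to 109 in A, measured 115, 175, 18.9, 289 and 79.6 in D, where the lowest value is again D3 and rests on 5 reads. The remaining 4 genes, Pecam1, Esam, Cdh5 and Sox17, had log2 fold changes between 0.56 and 0.89 and adjusted p between 0.21 and 0.54, and over the alternatives their log2 fold changes ran from 0.20 to 1.31.

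**Figure D5:**
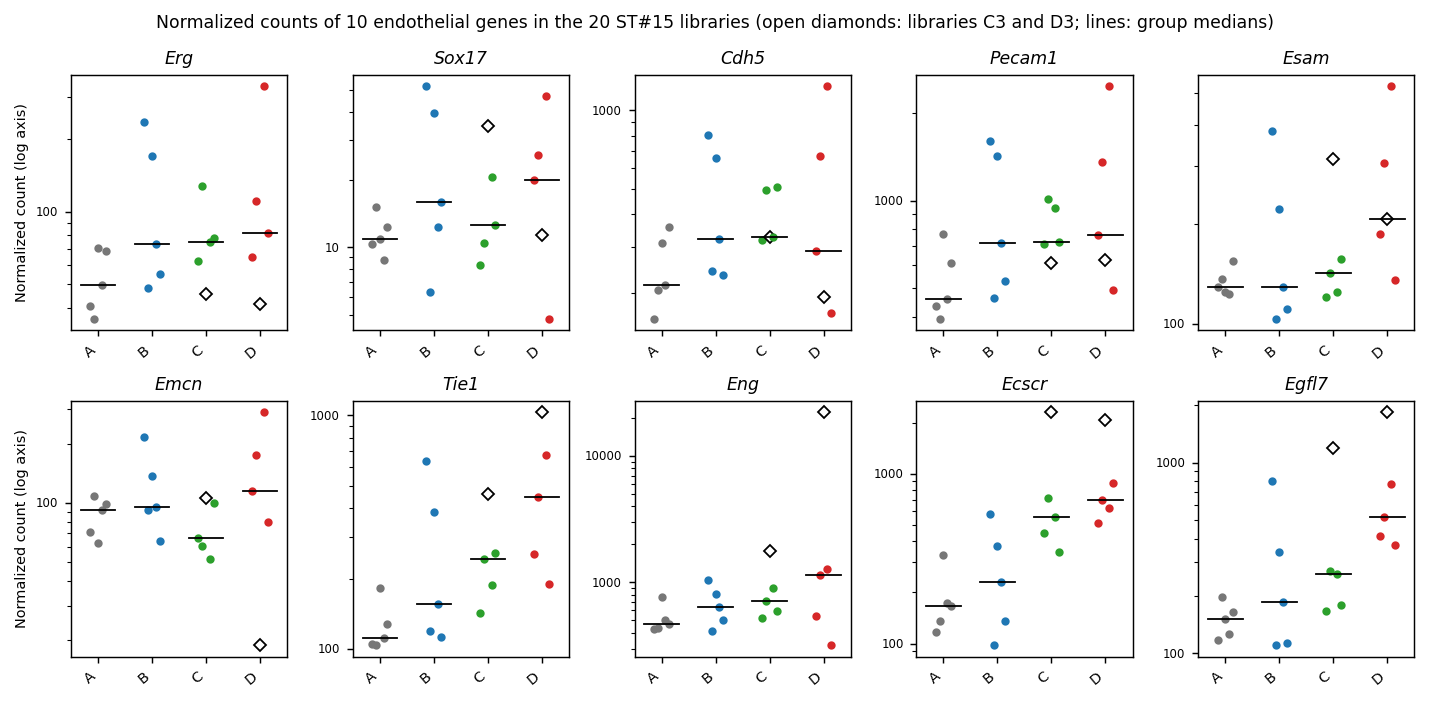
Normalized counts of the 10 endothelial genes in the 20 ST#15 libraries by letter, on a log axis with a scale of its own for each gene; points are libraries, lines are group medians and open diamonds are C3 and D3. The D points lie above all A points for Egfl7, Ecscr and Tie1, and the open diamond of D lies far above the others for Eng and far below for Emcn.

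The calls in D against A depended on which libraries were fitted. Without D3, 3 of the 10 rose, where 4.53% of 15404 genes were called higher: Egfl7 by 1.73 (adjusted p = 0.00948), Ecscr by 1.95 (adjusted p = 0.010) and Tie1 by 1.49 (adjusted p = 0.028). Without A3 1 of the 10 was called, where 132 of 15369 genes were called higher, and without D1 2, where 265 of 15329 were. Without A1, A2, A4, A5, D2, D4 or D5, leaving out 1 of them at a time, 0 of the 10 were called. The fold changes stayed about as large where calls were lost: over those 7 settings Egfl7 ran from 2.03 to 2.31 and Ecscr from 2.14 to 2.38 on the log2 scale. The number of genes called in all moved with it, from 1 without A2 to 698 higher and 707 lower without D3.

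In C against A, described as anti-LTβR and control, 0 of the 10 were called by limma or edgeR, where 0.239% of 15037 genes were called higher by limma, 4 of the 10 had an unadjusted p under 0.05 and 2 were called by DESeq2, where 3.79% of 15264 genes were called higher. C and A did not overlap for 1 of the 10, Ecscr, where 2.17% of all genes lay wholly higher in C. Ecscr came nearest, at 448, 722, 2295, 557 and 348 in C, above all A libraries, with a log2 fold change of 1.97 ± 0.47 (adjusted p = 0.11). Without C3 it was the only 1 of the 10 to pass, with a log2 fold change of 1.54 (adjusted p = 0.037). In that fit 188 of 15224 genes were called higher. In B against A, described as ADU-S100 and control, 0 of 14964 genes (0.0%) were called by limma and by edgeR, with 1105 at an unadjusted p under 0.05 by limma, and DESeq2 called 217 genes higher and 24 lower, none of the 10 among them. The log2 fold changes of the 10 ran from 0.31 to 0.88, with a median of 0.65, and without B1 from 0.015 to 0.56, with a median of 0.28. B1 and B3 stood above the other B libraries for all 10 genes, Egfl7 for example measuring 803, 111, 342, 185 and 113. Between D and C 0 of 15235 genes were called by limma (551 at an unadjusted p under 0.05) and between D and B 0 of 15317 (1231). In both, 0 of the 10 were called by limma, edgeR or DESeq2, while DESeq2 called 252 genes higher and 21 lower between D and C and 107 and 7 between D and B. Between D and C the median of the 10 was 0.39, which was 0.64 without C3, 0.17 without D4 and 0.55 without both C3 and D3, a setting chosen after seeing the data. Between D and B the median was 0.37, which was the same without D3, 0.06 without D4, 0.18 without B2, 0.22 without B5, 0.64 without B1 and 0.60 without D5. Ecscr had the largest difference between D and B, 1.85 ± 0.52 on the log2 scale (adjusted p = 0.51, limma), with 4 of 5 D libraries above every B library, and Egfl7 came next at 1.49 ± 0.60 (adjusted p = 0.51). These 2 had an unadjusted p under 0.05, and none of the 10 did between D and C.

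Other markers moved with these libraries as well, and their part was not tested. The summed fibroblast list was 191910 in B1, 182080 in B3, 166300 in D2 and 245560 in D4, against 22378 to 60457 in A, and the adipocyte list 5897 in B1 and 3355 in D4 against 58.5 to 466 in A. In D3 and C3 the macrophage list summed to 392710 and 160300, against 19302 to 38643 in A. The 6 lymphatic genes had a median log2 fold change of 1.35 in D against A and 1.59 in C against A. By limma 0 of 6 were called in either, with 4 and 6 at an unadjusted p under 0.05. Their summed levels were 466 to 1559 in A, 1037 to 2630 in C and 710 to 3664 in D. Without D3, limma called lymphatic Mmrn1 (2.63) and Pdpn (1.19) and fibroblast Dcn (2.80) and Lum (2.51) higher in D against A. Mural Rgs5, Higd1b and Kcnj8, platelet Itga2b and epithelial Epcam were also called higher, where 4.53% of all genes were. The other genes tested from these lists were not called, and these are named after their values were seen. Over the 20 libraries the correlation of each of the 10 endothelial genes with the other 9 ran from 0.388 for Emcn to 0.931 for Esam. Over the 18 without C3 and D3 it ran from 0.617 for Ecscr to 0.972 for Tie1.

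Of the 38 further endothelial genes, 3 rose in D against A, where 0.961% of all genes were called higher, with a median log2 fold change of 0.88 over the 38 beside -0.06 over all genes: Cldn5 by 2.66 (adjusted p = 0.033), Sox18 by 2.14 (adjusted p = 0.043) and Ramp2 by 2.17 (adjusted p = 0.046). From the vessel lists Gja4 rose by 2.34 (adjusted p = 0.042), the only 1 called of 4 arterial genes tested, of which 2 were above 0 (median -0.24). The venous list had 1 of 4 called (median 0.22) and the high endothelial venule list 1 of 2. Ackr1 and Glycam1 were also called and are named after their values were seen, the venular chemokine receptor by 2.20 (adjusted p = 0.043) and the mucin of high endothelial venules by 4.87 (adjusted p = 0.022). Without D3 these 6 genes stayed called, Cldn5 at 2.29 (adjusted p = 0.00948), Sox18 at 1.98, Ramp2 at 1.86, Gja4 at 2.00, Ackr1 at 2.14 and Glycam1 at 4.53, and of the 38 endothelial genes 7 rose and 1, Flt1, fell by 0.82 on the log2 scale (adjusted p = 0.048), where 4.53% of all genes were called higher and 4.59% lower. Also without D3, and named after their values were seen, venous Nr2f2 was called lower at -0.95 (adjusted p = 0.019) and capillary Rgcc higher at 0.98 (adjusted p = 0.039). Arterial Efnb2 was at -0.48 (adjusted p = 0.23). Of the 6 genes that rose, 0 were called without A1, A2, A4, D2 or D4, leaving out 1 at a time. Without A5 2 were called, without A3 or D5 3 and without D1 6. The log2 fold changes of the 6 stayed between 1.86 and 5.42.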

How the data were processed

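Total RNA was extracted with TRIzol from resected tumors, and its poly(A) RNA was sequenced from stranded (dUTP) libraries. The authors deposited tables of normalized counts, a signal equal to reads divided by a size factor per library, for 32 ST#23 tumors and for 52 libraries of ST#23 and ST#15. The submitters' processing notes name cutadapt 1.9, FastQC, HISAT2, StringTie, STAR, Partek, DESeq2, edgeR and mm39. The table of 32 tumors is named for Partek, and the study's methods describe mapping with HISAT2 to an Ensembl mouse genome and StringTie for expression levels, without tying these to either table. A deposited table of the authors' own enrichment results was not used.

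Because the values are not counts, limma 3.58.1 in R 4.3.3 was fitted on log2(value + 1) with a mean-variance trend, after filterByExpr with a count minimum of 10, on the 2 groups compared (all 4 for the interaction), with Benjamini-Hochberg adjustment over all genes tested. Of the values for the 52 libraries 100% came out as whole reads within 0.02 of a read. The recovered reads gave the depth of each library and entered edgeR 4.0.16 and DESeq2 1.42.0 as alternatives. By edgeR with TMM scaling 3271 genes were higher and 3391 lower in combination against untreated tumors. The fit was tested on simulated data.

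The 10 genes and all lists were chosen with earlier results of these data known. Genes were named by rule, apart from those marked as named after their values were seen. The rule took the 10 and endothelial genes past FDR 0.05 and 2-fold in combination against untreated tumors. It also took up to 2 genes with the highest mean of each other list, and the 10 genes most alike in profile. ST#15 was grouped by letter. Samples were not treated as paired by replicate number. Correlations of same-numbered deviations ran from -0.53 to 0.668, with means per comparison from -0.176 to 0.275. Positions and exon lengths are GENCODE vM21 on GRCm38, and promoters RefSeq GRCm38.p6. Alternatives were other tools and scalings, a pseudocount of 0.5, no filter, all libraries in the fit, a replicate block, and leaving out libraries.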

Additional observations from a re-analysis of the deposited data

Results flagged for a closer look

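Of 80 sets of libraries (10 genes in 8 groups), 14 held a library far from the others by Dixon's criterion, which chance alone meets in about 1 in 20 groups. In ST#23, ADU-S100 tumor 4 was low for Erg (29.5 normalized counts, next 44.9) and Pecam1 (372, next 538). Untreated tumor 3 was high for Pecam1 (817, next 678) and Eng (737, next 609), and combination tumor 5 for Ecscr (605, next 442).

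In ST#15, A3 was high for Ecscr (331, next 172) and Eng (774, next 507). C3 was high for Egfl7 (1194, next 271), Ecscr (2295, next 722) and Esam (315, next 157). D3 was high for Egfl7 (1836, next 775), Ecscr (2066, next 883) and Eng (22064, next 1267), and D4 for Erg (332, next 111).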

How the results depend on the processing

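Of the 38 further endothelial genes, 33 were called in combination against untreated tumors and 13 with a 2-fold change required. Against anti-LTβR 33 were called and against ADU-S100 35, with 1 and 16 at 2-fold. For anti-LTβR against untreated tumors 9 were called and 0 at 2-fold. With only libraries above 14000000 reads, chosen after seeing the data, 5 were called for anti-LTβR against untreated tumors and 21 for the combination against anti-LTβR.

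In ST#15, D against A called 2 of the 10 genes, and from 0 to 3 when 1 library was left out. With DESeq2 it called 4, where 1298 of 15391 genes were called higher. With all libraries in the fit it called 0, where 39 of 16185 were. C against A called 0, and from 0 to 1 when 1 library was left out. With DESeq2 it called 2, where 579 of 15264 genes were called higher. With edgeR without C3 and D3 (chosen after seeing the data) it called 1, where 208 of 15548 were. Emcn in D against A turned from 0.20 to -0.0035 without D2 and to -0.18 without D4, and was 0.78 without D3. Over all genes, D against A called 145 higher and 14 lower, 1298 and 500 with DESeq2, 47 and 1 with library totals, and 698 and 707 without D3. The cause was not tested. The lowest read counts of the 10 in ST#15 were 3 for Sox17 and 5 for Emcn, the latter in D3. In ST#23 they were 17 for Sox17 and 30 for Erg.

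The replicate block, whose numbers only name the libraries, called 1 of the 10 genes in D against A, and 32, 7, 0, 32 and 34 of the 38 endothelial genes in combination, anti-LTβR and ADU-S100 against untreated tumors and in the combination against anti-LTβR and ADU-S100. Over all genes it called 41 higher and 0 lower in D against A. Own numbers correlated best for at most 2 of 8 libraries in ST#23.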
